A study of Mus musculus with 15 samples.

Results

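Potassium channels are membrane pores that let potassium leave or enter a cell along its gradient, and they set the resting voltage, end the action potential and carry potassium across epithelia. Their genes fall into families. Voltage-gated (Kv) pores open on depolarisation, silent Kv subunits form channels only together with other Kv subunits, calcium- and sodium-activated channels open with intracellular ions, inward rectifiers hold the membrane near rest, and two-pore-domain channels carry leak currents. Auxiliary subunits (Kcnab, Kcne, Kcnip and related genes) alter the traffic and gating of the Kv pores. In neurons the mixture of these subunits shapes firing, and in the colon basolateral and apical potassium channels provide the electrical driving force for chloride secretion and take part in potassium secretion.

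The genes described were all loci of the deposited table whose gene name begins with Kcn, apart from 2 that the selection rule left out. There were 101 such loci among 23589 loci with a gene name. Of these, 93 lay on the annotated strand of the gene (92 protein-coding genes and the long non-coding RNA Kcnq1ot1), and 8 lay on the strand opposite to the gene they were named for and are called opposite-strand loci. The 92 coding genes comprised 29 voltage-gated pores, 10 silent Kv subunits, 13 Kv auxiliary subunits, 12 calcium- and sodium-activated channels or their subunits, 14 inward rectifiers and 14 two-pore-domain channels. The table merged Kcnk4 with Tex40, Kcna3 with AI504432 and Kcnj14 with Grwd1 in 1 locus each, so counts of those 3 loci cannot be assigned to the channel alone. The libraries kept the strand of the RNA.

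The tissues sequenced were the liver, the epididymal fat pad, the mucosa of the colon, the hypothalamus and the hippocampus, all from male mice of the C57BL/6 strain. Mice were fed ad libitum (AL) and studied at 5 months of age, placed on 40% dietary restriction (DR) at 4 months of age and studied after 1 month at 5 months of age, or returned to AL for 2 months after that month of DR (DR-AL) and studied at 7 months of age. Each of the 15 combinations of tissue and diet was 1 library made from RNA pooled from 5 mice, so there was no replicate of any tissue and diet, the spread between mice was not measured, and diet and age cannot be told apart in DR-AL. Levels are given as CPM, the counts on a locus per 1000000 counts on all named loci. Where a mean ± SD is given for a tissue, it is over its 3 libraries, 1 of each diet.

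The libraries held between 21767088 and 40500130 counts on named loci, at which 3 counts correspond to 0.0741 to 0.138 CPM. The defining markers of each labelled tissue were abundant in its libraries, with summed hepatocyte markers at 42396 to 47613 CPM in the liver, colon epithelium markers at 35480 to 35803 CPM in the colon, adipocyte markers at 20952 to 32167 CPM in fat, hypothalamic neuron markers at 974 to 1264 CPM in the hypothalamus and telencephalic excitatory neuron markers at 6832 to 7002 CPM in the hippocampus. The fat libraries stood apart from one another. The summed level of 8 testis germ cell markers was 5.45 CPM in AL fat, 558 CPM in DR fat and 2770 CPM in DR-AL fat, and that of 8 epididymis markers was 909, 3282 and 5094 CPM. The results for fat are therefore given beside these values, and those for tissues also without the fat libraries. In tissue RNA, fewer cells of a type and less RNA per cell cannot be told apart.

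The brain held most of the potassium channel RNA. The summed level of the 101 loci was 94.5 to 150 CPM in the 3 liver libraries, 500 to 863 CPM in fat, 554 to 637 CPM in the colon, 3841 to 4116 CPM in the hypothalamus and 5709 to 5832 CPM in the hippocampus, and no 2 of these ranges overlapped except those of fat and colon. A mean of at least 1 CPM was reached by 12 loci in the liver, 18 in the colon, 60 in fat, 81 in the hypothalamus and 79 in the hippocampus. By mean CPM, the tissue with the highest level was the hippocampus for 43 loci, the hypothalamus for 33, fat for 18, the colon for 7 and the liver for none. In 40 of the 43 hippocampal loci and 27 of the 33 hypothalamic loci, every library of that tissue was above every library of the next tissue. Among fat loci this was so for 8 of 18, and among colon loci for 5 of 7. In the AL libraries alone, fat was the highest tissue for 11 loci, compared with 17 in the DR libraries and 19 in the DR-AL libraries. In addition, 3 loci (Kcnk15, Kcnk16 and Kcnk18) had at most 3 counts in every library.

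**Figure D1:**
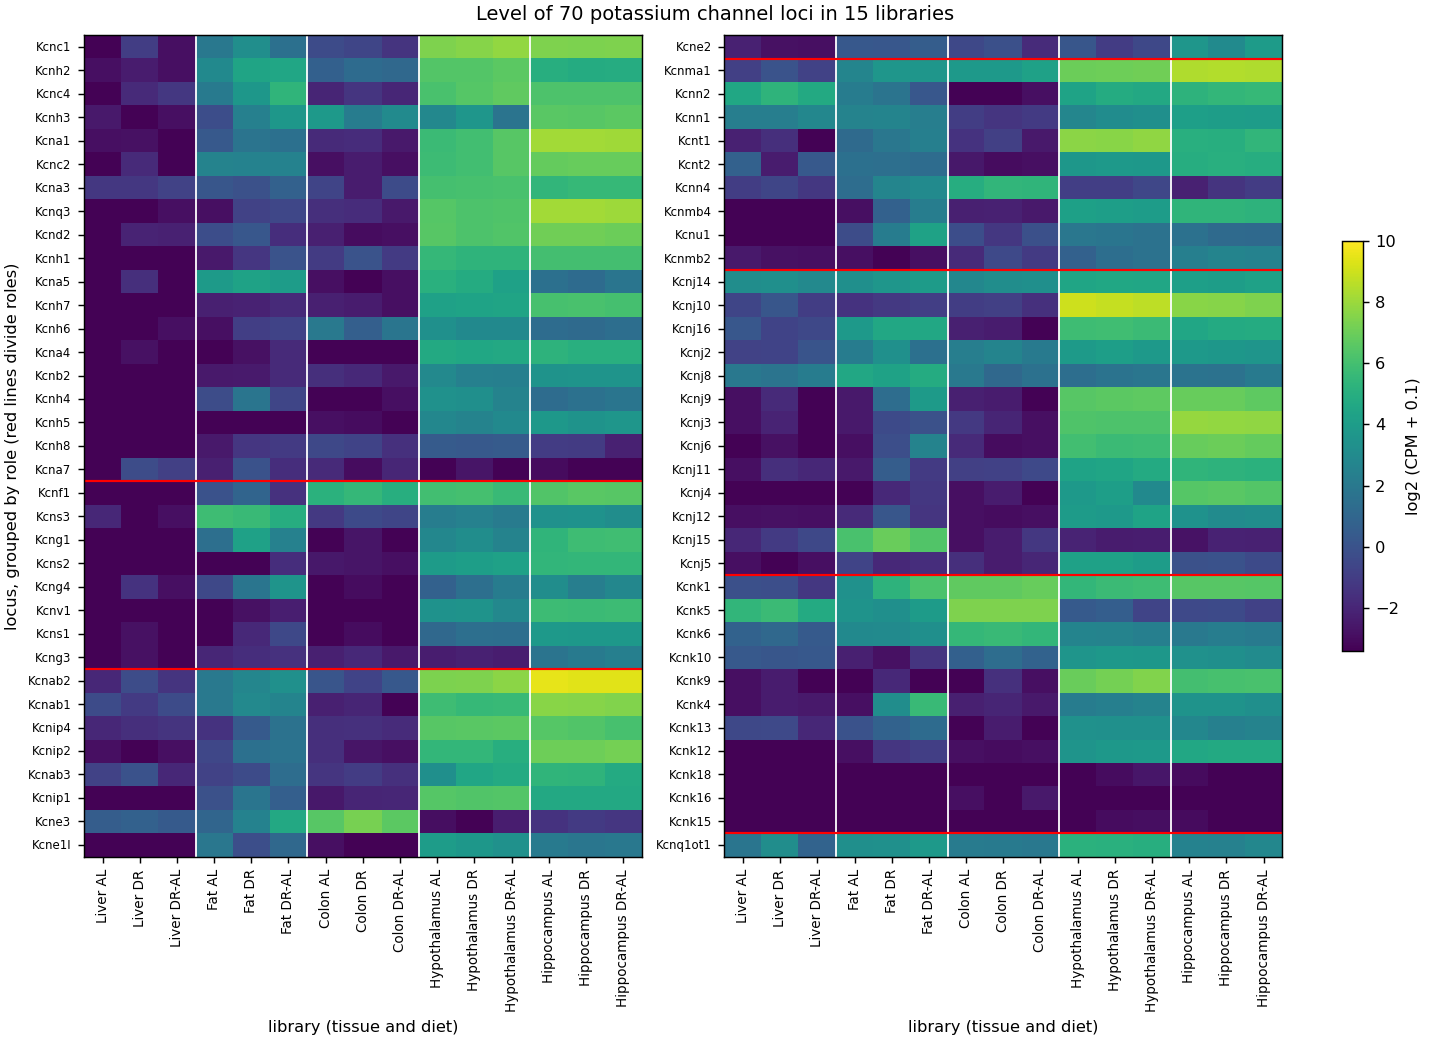
Level of 70 of the loci, those described by name (rows, grouped by role with red lines between roles), in each of the 15 libraries (columns, 3 diets in each tissue), coloured by log2 (CPM + 0.1). The 6 brain columns at the right of each panel are brighter than the others for most of these loci, the liver and colon columns are dark except for a few genes, and the 3 fat columns differ from one another.

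Silent Kv subunits and Kv auxiliary subunits were the families in which the hippocampus exceeded the hypothalamus by the highest ratio. The summed mean level of the silent subunits was 306 CPM in the hippocampus and 111 CPM in the hypothalamus, and that of the auxiliary subunits was 1272 and 548 CPM. Much of the auxiliary sum came from Kcnab2, at 671 to 716 CPM in the hippocampus and 163 to 202 CPM in the hypothalamus. Voltage-gated pores summed to 2525 CPM in the hippocampus and 1593 CPM in the hypothalamus. In contrast, inward rectifiers summed to 841 and 851 CPM, and two-pore-domain channels to 276 and 351 CPM. Outside the brain, two-pore-domain channels were the largest family in the colon, at 333 CPM, and voltage-gated pores and inward rectifiers were the largest in fat, at 211 and 166 CPM.

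The order of genes within a tissue was taken from FPKM, a count scaled by gene length and library size, which allows levels of genes of different length to be compared. Among the highest mean FPKM in the hippocampus were those of Kcnab2 (143), the beta subunit of Kv1 channels, Kcnab1 (49.8), Kcnj3 (43.7), a G protein-gated inward rectifier, and Kcnip2 (43.0), a calcium-binding partner of Kv4 pores. In the hypothalamus they were Kcnj10 (42.8), the inward rectifier that buffers potassium in glia, Kcnip4 (24.3), Kcnab2 (23.7), Kcnc1 (23.1), a pore of fast-spiking neurons, and Kcnip1 (19.7). In the colon they were Kcne3 (115), Kcnk1 (69.0), Kcnk5 (54.9), Kcnn4 (26.0) and Kcnk6 (13.1). In the liver they were Kcnn2 (30.1), a small-conductance calcium-activated channel, Kcnk5 (25.9), Kcnj14 (8.88), Kcnj8 (3.64) and Kcnn1 (2.63). In fat they were Kcns3 (8.31), a silent subunit, Kcnj15 (7.37), Kcnk1 (7.35), Kcnk4 (6.19) and Kcnj8 (5.05). Thus none of these genes was shared by the colon and a brain region, while Kcnab2 was shared by both brain regions.

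Levels were next compared between tissues with a model over all 15 libraries with terms for tissue and diet (edgeR quasi-likelihood test, adjusted p under 0.05 over the 17476 genes tested, 91 of the 101 loci among them). The 3 libraries of a tissue differ in diet and were treated as its replicates after the diet term. Diet or age effects particular to a tissue therefore count as spread, together with differences between pools, and these cannot be told apart. The estimate of the spread is shared by all 15 libraries, among them the fat libraries with their unequal testis and epididymis markers. Of the 91 loci, 81 were called higher in brain than in the peripheral tissues and 7 lower. Among all genes tested 41.8% were called higher and 38.5% lower. The median log2 fold change of the 91 loci was 5.08, and that of all genes was 0.02. By family, the calls for higher in brain covered 27 of 28 voltage-gated pores tested, 9 of 10 silent subunits, 11 of 12 auxiliary subunits, 10 of 11 calcium- and sodium-activated channels, 11 of 13 inward rectifiers and 8 of 10 two-pore-domain channels. This contrast averages the logarithms of 3 peripheral tissues, so 7 of the 81 had their highest mean CPM in fat (Kcns3 was one) and 1 in the colon.

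The genes furthest above the periphery were Kcnv1, a silent subunit, Kcna4, a voltage-gated pore, Kcnk9, a two-pore-domain channel, and Kcnq3, a subunit of the M-current channel. Kcnv1 measured 10.8, 11.2 and 7.08 CPM in the AL, DR and DR-AL hypothalamus and 56.1, 53.1 and 55.7 CPM in the hippocampus, and it totalled 4 counts in the 9 peripheral libraries. The ratio of pooled counts over pooled library totals, brain over periphery, was 1903, with a 95% interval of 743 to 6987 from counting error alone. Kcnq3 measured 89.3, 77.6 and 80.5 CPM in the hypothalamus and 279, 284 and 266 CPM in the hippocampus, and at most 0.585 CPM in any peripheral library (log2 fold change 10.05 ± 0.31 SE, edgeR adjusted p = 2.2e-10). Kcnk9 measured 122, 149 and 175 CPM in the hypothalamus and 63.6, 68.8 and 72.3 CPM in the hippocampus, against at most 0.239 CPM outside the brain. Brain and peripheral libraries did not overlap for any of these genes. The other 4 genes of the 8 with the largest fold changes were Kcnj4, Kcns2, Kcnh7 and Kcnh5, with log2 fold changes of 9.76 to 9.88. Kcnh5 totalled 2 counts in the 9 peripheral libraries. Its ratio of pooled counts over pooled library totals was 1119, with a 95% interval of 309 to 9250 from counting error alone.

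The genes called lower in brain than in the periphery were 7, namely Kcne3, Kcnk5, Kcnj15, Kcna7, Kcnn4, Kcnj8 and Kcnk6. They had log2 fold changes from -7.03 for Kcne3 to -1.30 for Kcnk6. Kcna7, a voltage-gated pore, reached no more than 0.876 CPM in any library. Of the remaining 6, 4 were highest in the colon, and Kcnj15 and Kcnj8 were highest in fat. Leaving out any single library left the total of called loci at 88, and without all 3 fat libraries it was 89.

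The colon had a small group of epithelial channel genes. Kcne3, the auxiliary subunit of the basolateral cAMP-activated channel of colonic crypts, measured 91.5 CPM in AL, 155 CPM in DR and 98.6 CPM in DR-AL colon, compared with 1.22 to 1.61 CPM in the liver and at most 0.352 CPM in the brain. Kcnk5, an alkaline-activated two-pore-domain channel, measured 169, 170 and 171 CPM in the colon and 42.9, 52.5 and 27.3 CPM in the liver. Kcnn4, the intermediate-conductance calcium-activated channel, measured 30.3, 42.8 and 40.6 CPM in the colon and no more than 0.577 CPM in the liver and brain libraries. For each of these genes every colon library was above every library of the other tissues. The same held for Kcnk6, at 47.5 ± 3.02 CPM (SD, n = 3), and for Kcnk1, which measured 105, 105 and 120 CPM in the colon but also 89.6 to 92.9 CPM in the hippocampus. Kcnma1, the large-conductance calcium-activated channel, measured 13.8, 14.2 and 18.8 CPM in the colon, 0.445 to 0.919 CPM in the liver and 341 to 352 CPM in the hippocampus.

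Of the 91 loci tested, 24 were called higher in colon than liver and 15 lower, where 31.5% of all genes were called higher and 32.5% lower. The log2 fold change of colon over liver was 5.66 ± 0.68 (SE) for Kcne3, 5.74 ± 0.34 for Kcnn4, 6.69 ± 0.59 for Kcnk1, 4.12 ± 0.18 for Kcnk6, 3.95 ± 0.25 for Kcnma1 and 1.37 ± 0.25 for Kcnk5. Their edgeR adjusted p ran from 1.2e-08 for Kcnk6 to 0.00062 for Kcnk5. In all tissue comparisons the fold changes use size factors (TMM), whereas CPM use library totals, so the 2 scales differ. The ratio of mean CPM, colon over liver and not as log2, was 172 for Kcnk1, 88.7 for Kcnn4 and 4.16 for Kcnk5. Each is larger than the fold change of the model. Kcnf1, a silent Kv subunit, measured 35.3, 46.0 and 31.8 CPM in the colon and had no count in any liver library, which makes it at least 910-fold higher in the colon, with the floor of 3 counts taken over the 3 liver libraries. Kcnu1, Kcnh1, Kcnh8 and its opposite-strand locus also had no count in the liver, but their colon levels were at most 0.928 CPM, and the bounds were 14.2, 13.9, 10.9 and 12. Kcnh3, a voltage-gated pore, measured 13.9, 4.61 and 8.03 CPM in the colon and at most 0.0809 CPM in the liver.

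The liver expressed a different calcium-activated channel. Kcnn2 measured 23.9, 40.4 and 27.0 CPM in AL, DR and DR-AL liver and totalled 1 count in the 3 colon libraries. The ratio of pooled counts over pooled library totals, liver over colon, was 2554, with a 95% interval of 458 to 100900 from counting error alone. Kcnn1, of the same small-conductance family, measured 4.93 to 6.86 CPM in the liver and 0.299 to 0.414 CPM in the colon (log2 fold change -4.68 ± 0.29 SE, edgeR adjusted p = 1.7e-07). Kcnt2, a sodium-activated channel, Kcnk13, a two-pore-domain channel, its opposite-strand locus and Kcnj16, an inward rectifier, were also called lower in colon than liver, at levels of at most 1.58 CPM in the liver. Kcnk13 and its opposite-strand locus, at 0.163 to 0.643 and 0.0919 to 0.162 CPM in the liver, were near the level of a few counts. Kcnt2 had 39, 2 and 29 counts in AL, DR and DR-AL liver. Its DR liver level of 0.0919 CPM was close to its highest colon level, 0.0753 CPM.

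**Figure D2:**
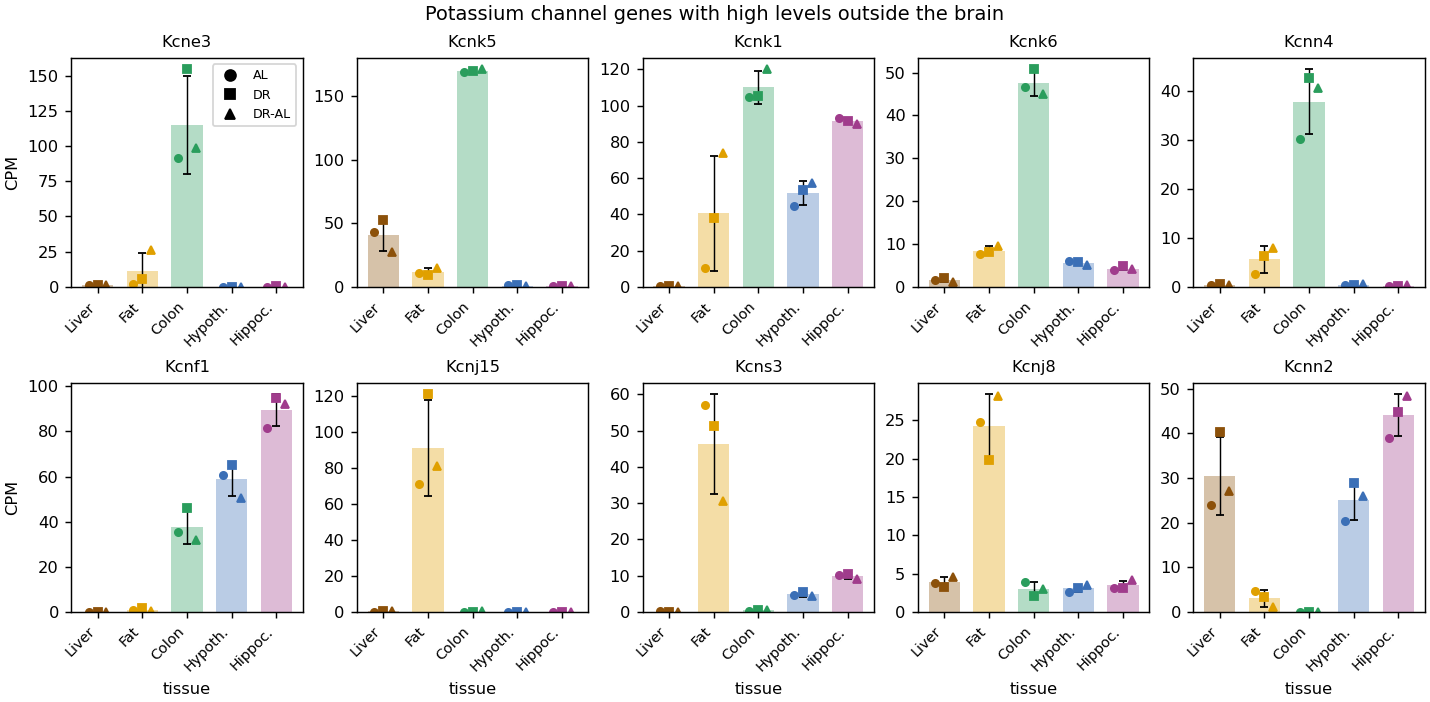
CPM of 10 genes in each tissue. Bars are means over the 3 libraries of a tissue, error bars are the SD over those libraries (cut at 0), and the circle, square and triangle are the AL, DR and DR-AL library. Kcne3, Kcnk5, Kcnk6 and Kcnn4 stand highest in the colon, Kcnj15, Kcns3 and Kcnj8 in fat, and Kcnn2 is found in liver and brain but not in the colon.

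Fat had its own set. Kcnj15, an inward rectifier, measured 71.0 CPM in AL fat, 121 CPM in DR fat and 80.8 CPM in DR-AL fat, and at most 0.612 CPM in any library of another tissue. Kcns3 measured 57.0, 51.2 and 30.7 CPM in fat and less in every other library, its next highest mean being 9.95 CPM in the hippocampus. Kcnj8, the pore of vascular KATP channels, measured 24.8, 19.8 and 28.2 CPM in fat and at most 4.61 CPM elsewhere. In AL fat testis germ cell markers summed to 5.45 CPM, epididymis markers to 909 CPM and hepatocyte markers to 13514 CPM. The part of these tissues in the levels of the 3 genes was not tested. For these 3 genes the AL fat library was above every library of the other tissues. In contrast, Kcnk4 and Kcnu1, which also had their highest mean CPM in fat, were at 0.0381 and 0.725 CPM in AL fat and are described with the diets below. Abcc9, the sulfonylurea receptor that assembles with Kcnj8, measured 63.4, 53.0 and 60.1 CPM in fat and 22.7 to 25.8 CPM in the liver.

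The 2 brain regions differed at fewer loci than brain and periphery. Of 91 loci, 33 were called higher in the hippocampus than in the hypothalamus and 13 lower, where 15.3% of all genes were called higher and 15.5% lower. The median log2 fold change of the loci was 0.68, against -0.03 for all genes. The calls for higher in the hippocampus included 7 of 10 silent subunits and none of these was called lower. They also included 13 of 28 voltage-gated pores, with 3 called lower, 5 of 12 auxiliary subunits, with 2 called lower, and 4 of 11 calcium- and sodium-activated channels, with 1 called lower. Among inward rectifiers 2 were higher and 3 lower, and among two-pore-domain channels 1 was higher and 1 lower. The count of 46 calls rested on all 6 brain libraries, since leaving out any 1 of them reduced it to 26 to 29 (26 without the AL hypothalamus, the DR hypothalamus or the AL hippocampus, 27 without the DR-AL hypothalamus, 28 without the DR hippocampus and 29 without the DR-AL hippocampus). Without the 3 fat libraries 46 were higher and 18 lower. The shares of all genes called in these fits are not given here, so the changes in number are not a result about the loci.

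The genes highest in the hippocampus relative to the hypothalamus were mostly silent subunits and voltage-gated pores. Kcng3 measured 3.28, 4.32 and 5.09 CPM in AL, DR and DR-AL hippocampus and 0.101, 0.122 and 0.0961 CPM in the hypothalamus (log2 fold change 5.49 ± 0.48 SE, edgeR adjusted p = 3e-05). It totalled only 10 counts in the hypothalamus libraries, a level of a few counts each. The ratio of pooled counts over pooled library totals was 38.3, with a 95% interval of 20.6 to 80.4 from counting error alone. Kcnh3 measured 94.6, 90.6 and 98.7 CPM in the hippocampus and 7.04, 12.5 and 3.33 CPM in the hypothalamus (log2 fold change 3.86 ± 0.78, adjusted p = 0.0040). Kcnj4, a strong inward rectifier of forebrain neurons, measured 88.0, 95 and 84.7 CPM in the hippocampus and 13.6, 17.3 and 7.56 CPM in the hypothalamus (log2 fold change 3.10 ± 0.42, adjusted p = 0.00075). The groups did not overlap for any of these genes. Kcng1, Kcns1, Kcnv1 and Kcna1, the Kv1.1 pore of axons, had log2 fold changes of 3.11, 2.77, 2.76 and 2.31. The call for Kcns1 was lost without 3 of the 15 libraries, taken 1 at a time.

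Kcne2, an auxiliary subunit that is also a marker of the choroid plexus, measured 12.2, 8.01 and 15.3 CPM in the hippocampus and 1.04, 0.397 and 0.609 CPM in the hypothalamus (log2 fold change 4.40 ± 0.52 SE, edgeR adjusted p = 0.00018). The 6 choroid plexus markers, a list that includes Kcne2, summed to 2875, 1764 and 2809 CPM in AL, DR and DR-AL hippocampus and to 72.2, 63.3 and 51.9 CPM in the hypothalamus. The share of choroid plexus in the difference in Kcne2 was not tested.

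Genes higher in the hypothalamus came from several families. Kcnj5, a G protein-gated inward rectifier, measured 19.1, 19.4 and 15.8 CPM in the hypothalamus and 0.864, 0.897 and 0.676 CPM in the hippocampus (log2 fold change -4.23 ± 0.42 SE, edgeR adjusted p = 6.7e-05). Kcna5, the Kv1.5 pore, measured 33.8, 29.1 and 19.4 CPM in the hypothalamus and 2.34 to 3.38 CPM in the hippocampus (log2 fold change -2.98 ± 0.52, adjusted p = 0.0016). Kcnt1, a sodium-activated channel, measured 204, 197 and 221 CPM in the hypothalamus and 33.2, 32.0 and 42.5 CPM in the hippocampus (log2 fold change -2.29 ± 0.33, adjusted p = 0.00056). Kcnq1ot1, an imprinted non-coding RNA, measured 35.6, 34.4 and 32.4 CPM in the hypothalamus and 5.41 to 6.84 CPM in the hippocampus (log2 fold change -2.26 ± 0.42, adjusted p = 0.0024). Every hypothalamus library was above every hippocampus library in each case. Kcnj10 was the most abundant locus of the hypothalamus in CPM, at 501, 447 and 403 CPM compared with 171 to 194 CPM in the hippocampus (log2 fold change -1.04 ± 0.19, adjusted p = 0.0025), and the astrocyte markers summed to 2658 to 2893 CPM in the hypothalamus and 4650 to 5364 CPM in the hippocampus. The remaining genes of the 8 lowest, Kcnh8, its opposite-strand locus, the opposite-strand locus of Kcne2 and Kcne1l (also named Kcne5), lost the call without 5 to 12 of the 15 libraries, taken 1 at a time.

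**Figure D3:**
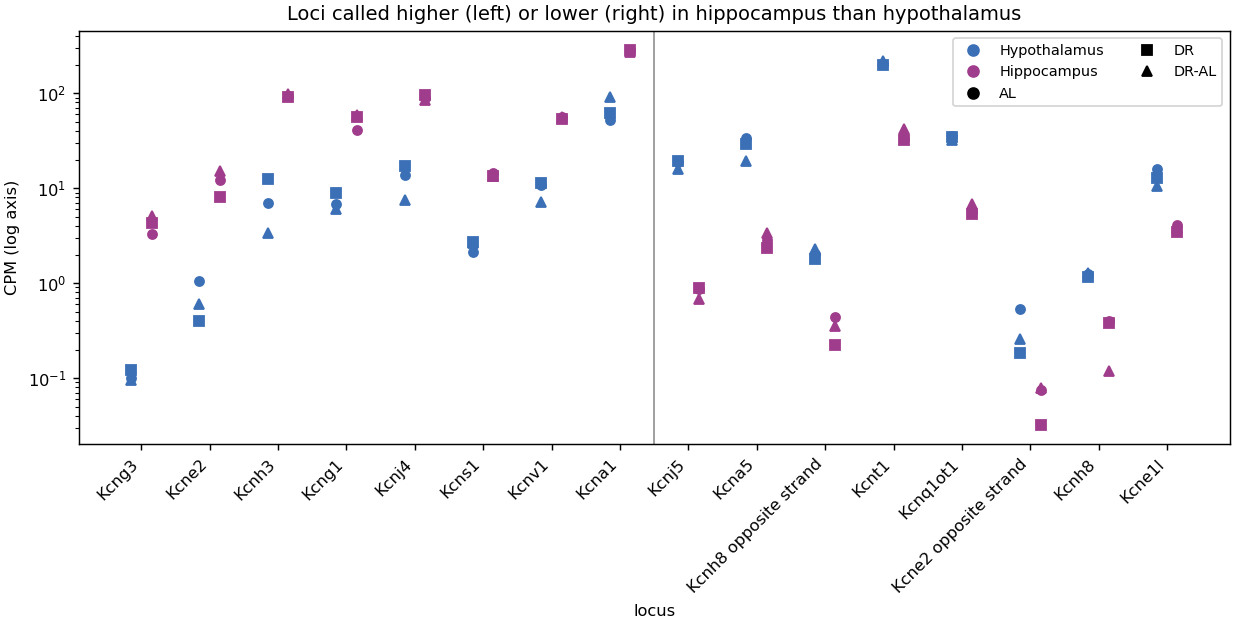
CPM on a log axis of the 8 loci with the largest called fold change in favour of the hippocampus (left of the line) and the 8 in favour of the hypothalamus (right). Each symbol is 1 library, with blue for hypothalamus and purple for hippocampus and the shape for diet. The colours are separate at every locus, and among the hypothalamus libraries Kcnh3 spreads widest, from 3.33 to 12.5 CPM.

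Other well-known neuronal channels were common to both regions. Kcnma1 measured 341 to 352 CPM in the hippocampus and 128 to 137 CPM in the hypothalamus, and Kcnd2, the A-type pore of dendrites, 126 to 137 and 77.0 to 90.1 CPM. Both were called higher in the hippocampus, with log2 fold changes of 1.63 and 0.93. Kcnj11, the pore of neuronal KATP channels, measured 35.6 to 41.1 CPM in the hippocampus and 20.5 to 27.4 CPM in the hypothalamus, and was not called.

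Genes that work with potassium channels (25 auxiliary proteins, HCN channels, sodium-potassium pumps and cotransporters) were examined beside them. In the same model, 24 of the 25 were tested, 19 were called higher in brain than periphery and 4 lower, 4 were higher in hippocampus than hypothalamus and 5 lower, and 7 were higher in colon than liver and 4 lower. The shares of all genes called were 41.8% and 38.5%, 15.3% and 15.5%, and 31.5% and 32.5%. Hcn4, a pacemaker channel, measured 2.64 to 3.74 CPM in the hippocampus and 27.2 to 33.6 CPM in the hypothalamus. Lrrc26, the auxiliary protein that shifts Kcnma1 channels of epithelial cells to open at rest, measured 47.5, 37.7 and 44.1 CPM in the colon and had no count in the liver. Slc12a2, the cotransporter that loads chloride for secretion, measured 203 to 213 CPM in the colon and 6.80 to 8.93 CPM in the liver (log2 fold change 3.97 ± 0.15 SE, edgeR adjusted p = 5.4e-09).

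The promoters of a few of these genes are shown because the study measured CG methylation at promoters of other genes, and CG dinucleotides are among the sites at which DNA is methylated. RefSeq promoter windows (GRCm38.p6) were found for 69 of the 93 genes. In the 250 bases before the start site, the 94 windows of these genes had a median of 7 CG, from 0 to 43, where all 32851 windows had a median of 6. The median was 8.5 for genes highest in the hippocampus (42 windows), 8 for the hypothalamus (35 windows), 6 for fat (11 windows) and 4.5 for the colon (6 windows), and these medians are a description without a test. The sequences below read 5′ to 3′ on the strand of the gene, with each CG in capitals. The first is that of the gene furthest above the hypothalamus in the hippocampus, the second that of the gene furthest below it, those of Kcnk5 and Kcnn4 are from the colon group and the last is from the gene highest in fat by mean CPM.
Kcng3, chr17:83631896-83632145, minus strand, 41 CG: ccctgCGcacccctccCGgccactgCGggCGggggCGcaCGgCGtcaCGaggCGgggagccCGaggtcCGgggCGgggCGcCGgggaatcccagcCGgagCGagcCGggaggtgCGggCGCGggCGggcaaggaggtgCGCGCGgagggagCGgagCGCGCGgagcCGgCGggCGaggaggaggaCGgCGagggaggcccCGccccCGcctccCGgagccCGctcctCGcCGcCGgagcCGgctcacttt
Kcnj5, chr9:32344345-32344594, minus strand, 7 CG: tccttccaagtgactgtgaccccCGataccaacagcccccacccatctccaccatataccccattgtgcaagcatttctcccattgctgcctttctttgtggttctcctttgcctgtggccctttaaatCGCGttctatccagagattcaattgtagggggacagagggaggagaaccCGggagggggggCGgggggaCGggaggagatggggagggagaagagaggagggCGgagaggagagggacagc
Kcnk5, chr14:20181783-20182032, minus strand, 19 CG: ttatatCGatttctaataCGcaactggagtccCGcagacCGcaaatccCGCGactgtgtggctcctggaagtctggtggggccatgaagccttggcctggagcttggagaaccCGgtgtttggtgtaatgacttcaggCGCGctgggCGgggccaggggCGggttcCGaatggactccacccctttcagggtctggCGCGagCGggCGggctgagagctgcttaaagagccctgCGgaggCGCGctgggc
Kcnn4, chr7:24370013-24370262, plus strand, 6 CG: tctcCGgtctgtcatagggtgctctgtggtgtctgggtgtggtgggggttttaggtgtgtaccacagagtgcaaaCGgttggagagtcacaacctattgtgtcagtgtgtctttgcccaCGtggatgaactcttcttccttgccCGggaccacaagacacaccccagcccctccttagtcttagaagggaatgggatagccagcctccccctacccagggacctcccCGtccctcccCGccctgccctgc
Kcnj15, chr16:95257308-95257557, plus strand, 1 CG: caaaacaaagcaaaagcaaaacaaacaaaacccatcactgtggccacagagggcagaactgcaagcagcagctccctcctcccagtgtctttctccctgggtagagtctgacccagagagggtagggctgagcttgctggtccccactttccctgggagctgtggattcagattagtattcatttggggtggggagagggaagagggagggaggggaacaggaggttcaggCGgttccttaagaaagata
The windows of Kcng3 and Kcnj15 thus differed most in CG number among these 5. No methylation value of these promoters was analysed here.

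The diets were compared within each tissue, 1 library against 1, by the Z test on square roots of counts that the study used, at an adjusted p under 0.05 over all genes and the fold threshold of the study. A call in this test compares the 2 libraries beyond counting error, not the diets, since mice were pooled. No p is therefore printed. The DR and DR-AL comparisons of a tissue share its AL library and are given side by side. Log2 fold changes add 0.5 to the scaled counts, and intervals are 95% exact intervals of the ratio from counting error alone.

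Fat had the most calls. Of 96 loci with counts in fat, 55 were called higher and 4 lower in DR than AL, where 35.2% of all genes were called higher and 10.4% lower, and 56 were higher and 10 lower in DR-AL than AL, where the shares were 46% and 11.9%. The median log2 fold change was 1.00 in DR and 1.13 in DR-AL. Over all genes averaging 10 counts or more, the median was above 0 when counts were scaled by library totals (0.24 and 0.34). It was near 0 with DESeq size factors (0.05 and 0.00). With these factors 49 loci were higher and 9 lower in DR, where 5342 of all 20382 genes were higher and 3382 lower. In DR-AL 47 loci were higher and 18 lower, where 6817 genes were higher and 5029 lower. By FPKM, where the median of all genes was -0.45 and -1.18, 37 loci were higher and 8 lower in DR, and 22 higher and 26 lower in DR-AL. Of all 20382 genes, 3619 were higher and 6049 lower by FPKM in DR, and 3775 higher and 9137 lower in DR-AL. For 18 and 24 of the called loci the AL library held at most 3 counts.

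Among loci averaging 50 counts or more in fat, the largest increases in DR-AL were in Kcnk4, Kcnj9, Kcnj6, Kcnmb4 and Kcnu1, and in DR in Kcnk4, Kcnmb4, Kcnj9, Kcnj6 and Kcng1. The locus of Kcnk4 and Tex40, of which the second is a testis-expressed gene, had 1, 206 and 1404 counts, or 0.0381, 9.02 and 51.3 CPM. Kcnu1, the sperm-specific pH-sensitive channel, went from 19 counts to 106 and 544 (log2 fold change 2.65, interval 1.97 to 3.47, and 4.74, interval 4.12 to 5.52). Kcnj9 and Kcnj6, G protein-gated inward rectifiers, went from 2 counts to 58 and 406 and from 1 count to 18 and 162. Kcnmb4, a beta subunit of Kcnma1 channels, went from 1 count to 36 and 131. These 5 loci of DR-AL were in the order AL, DR, DR-AL, which is also the order of the testis germ cell markers (for example Prm2 at 1.64, 171 and 771 CPM) and of the epididymis marker Crisp1 (846, 2802 and 4584 CPM). Their part in these differences was not tested. In the liver libraries the testis germ cell markers summed to at most 1.39 CPM.

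Kcng1, a silent subunit, had another order, with 70, 434 and 152 counts in AL, DR and DR-AL fat (log2 fold change 2.82 in DR and 1.05 in DR-AL). Kcnj2, an inward rectifier of muscle and endothelium, was called higher in DR (118 and 230 counts, log2 fold change 1.16, interval 0.84 to 1.5) and lower in DR-AL (78 counts, -0.66, interval -1.09 to -0.23). The smooth muscle markers summed to 1338, 3880 and 1303 CPM in the same libraries, and their part was not tested. Among calls for lower, Kcnn2 had 122, 76 and 29 counts (-0.48 and -2.11), Kcne1l 95, 18 and 58 counts (-2.17 and -0.77), and Kcns3 1494, 1168 and 840 counts (-0.16, not called, and -0.89). The opposite-strand locus of Kcns3 had 214, 163 and 78 counts (-0.19, not called, and -1.51). In these libraries adipocyte markers summed to 32167, 25138 and 20952 CPM, and hepatocyte markers to 13514, 5270 and 4110 CPM. Kcnn2 was the first locus of the liver by FPKM, at 23.9 to 40.4 CPM there and 39.0 to 48.4 CPM in the hippocampus. The part of these markers in the differences was not tested. Kcnj8 was called lower in DR (649 and 452 counts, -0.32) and was not called in DR-AL (771 counts, 0.19).

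In the liver, 73 loci had counts and most were low. Of these, 13 were called higher and 4 lower in DR, where 18% of all genes were called higher and 9.92% lower, and 5 were higher and 8 lower in DR-AL, where the shares were 15% and 15.8%. Where a mean of at least 10 counts was required, the calls were 3 higher and 2 lower in DR and 1 higher and 7 lower in DR-AL. Of the 12823 genes with that mean, 2862 were higher and 1621 lower in DR, and 2392 higher and 2620 lower in DR-AL. Kcnn2 was called higher in DR, with 592 counts in AL and 879 in DR (log2 fold change 0.75, interval 0.60 to 0.91), and had 662 counts in DR-AL (0.18, not called). Kcnq1ot1 had 83, 194 and 42 counts under AL, DR and DR-AL, and was called higher in DR (1.40, interval 1.03 to 1.80) and lower in DR-AL (-0.96, interval -1.54 to -0.42). Kcnk5 was not called in DR (1061 and 1142 counts, 0.29) and was called lower in DR-AL (669 counts, -0.65, interval -0.79 to -0.51). Kcnn1 (122, 109 and 168 counts) was called higher in DR-AL alone.

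In the colon, Kcne3 and Kcnn4 of the epithelial channel genes were called higher in DR. Of 92 loci, 10 were called higher and 4 lower in DR, where 9.04% of all genes were called higher and 10.6% lower, and 4 were higher and 2 lower in DR-AL, where the shares were 5.83% and 8.5%. Kcne3 was called higher in DR, with 2430 counts in AL and 5165 in DR (log2 fold change 0.76, interval 0.69 to 0.83), and had 2469 counts in DR-AL (0.11, not called). Kcnn4 was called higher in both, with 805, 1430 and 1018 counts (0.50, interval 0.37 to 0.62, and 0.42, interval 0.29 to 0.56). Kcnf1 was higher in DR (938 and 1536 counts, 0.38) and not in DR-AL (797 counts, -0.15), and Kcnma1 was higher in DR-AL (366 and 472 counts, 0.45) and not in DR (475 counts, 0.04). Kcnk10, a two-pore-domain channel, was called higher in DR (41 and 84 counts, 0.70), and the locus of Kcnj14 and Grwd1 in both (181, 299 and 239 counts, 0.39 and 0.48). Kcnk5 (0.01 and 0.02), Kcnk1 (0.01 and 0.20) and Kcnk6 (0.13 and -0.05) were called in neither comparison. The colon epithelium markers summed to 35480, 35671 and 35803 CPM.

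The voltage-gated pores Kcnh3 and Kcnh6 were called lower in the colon. Kcnh3 was called lower in both comparisons, with 368, 154 and 201 counts (log2 fold change -1.58, interval -1.87 to -1.31, and -0.79, interval -1.04 to -0.54). Kcnh6 was called lower in DR (106 and 50 counts, -1.41, interval -1.93 to -0.92) and was not called in DR-AL (84 counts, -0.25). Kcnj8 was also called lower in DR (105 and 69 counts, -0.93) and not in DR-AL (74 counts, -0.42), in libraries where the endothelium and pericyte markers summed to 28.4, 33.9 and 28.6 CPM and the smooth muscle markers to 69.1, 92.3 and 37.5 CPM. Of the partner genes, Atp12a, the colonic proton-potassium pump that takes up potassium, was called higher in both comparisons, with 12960, 25929 and 45278 counts (0.67 and 1.89).

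**Figure D4:**
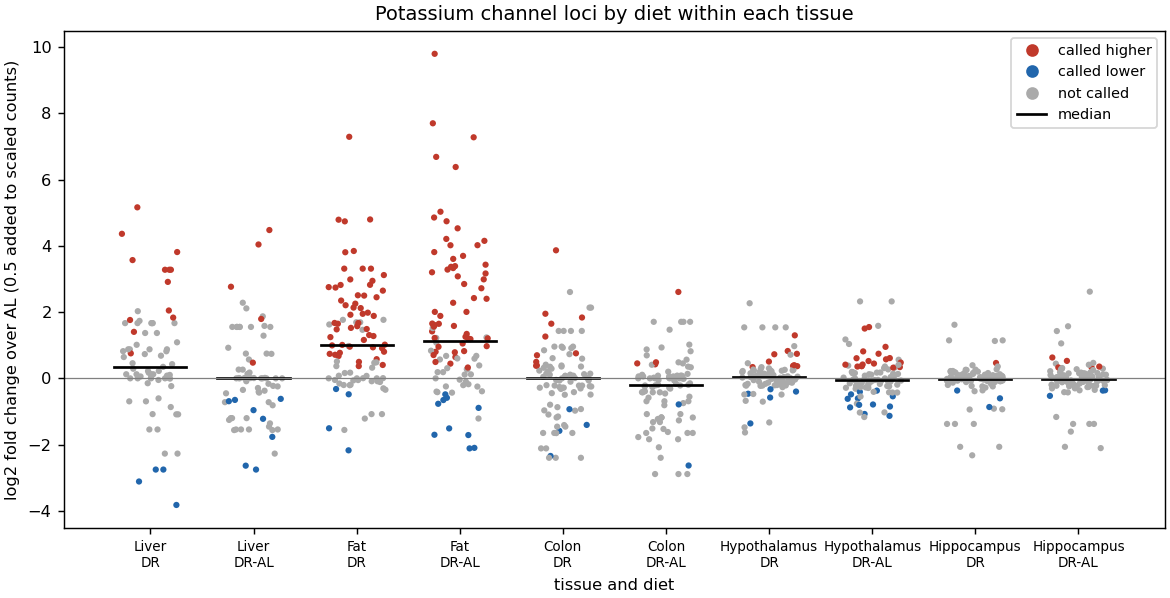
Log2 fold change over AL (0.5 added to scaled counts) of every locus with counts in a tissue, for DR and DR-AL. Each point is 1 locus, red where called higher, blue where called lower and grey otherwise, with the median as a black line. The medians are 1.00 and 1.13 in fat and between -0.20 and 0.35 in the other tissues.

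The hypothalamus had more calls than the hippocampus. Of 98 loci, 9 were called higher and 5 lower in DR, where 4.33% of all genes were called higher and 2.72% lower, and 18 were higher and 12 lower in DR-AL, where the shares were 6.06% and 9.02%. Kcnab3, a beta subunit of Kv1 channels, was called higher in both, with 281, 763 and 865 counts, or 9.47, 23.3 and 27.7 CPM (log2 fold change 1.30, interval 1.10 to 1.5, and 1.55, interval 1.35 to 1.75). Kcng4, a silent subunit, had 48, 88 and 144 counts (0.73 and 1.5), and Kcnmb2, a beta subunit of Kcnma1 channels, 47, 87 and 96 counts (0.74 and 0.95), both called higher in both comparisons. Kcnn2 was also called higher in both (601, 942 and 809 counts, 0.51 and 0.36). Kcna1 and Kcnc2, the latter a pore of fast-spiking neurons, were called in DR-AL alone, with 1554, 2018 and 2873 counts (0.23 and 0.81, interval 0.72 to 0.90) and 1639, 1980 and 2884 counts (0.13 and 0.74, interval 0.65 to 0.83). The oligodendrocyte markers summed to 3956, 4379 and 5958 CPM in the same libraries, and their part in these differences was not tested.

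In the hypothalamus, Kcnh3 and Kcnj4, which were higher in the hippocampus, were called in both directions. Kcnh3 was called higher in DR and lower in DR-AL, with 209, 409 and 104 counts (log2 fold change 0.83, interval 0.58 to 1.07, and -1.08, interval -1.43 to -0.73). Kcnj4 did the same, with 405, 566 and 236 counts (0.34 and -0.85). The telencephalic excitatory neuron markers summed to 896, 946 and 730 CPM in AL, DR and DR-AL hypothalamus, and their part was not tested. Kcna5 was called lower in DR-AL (1004, 952 and 606 counts, -0.22, not called, and -0.80, interval -0.95 to -0.65), as was Kcnh4 (306, 315 and 186 counts, -0.10, not called, and -0.79). Kcne1l was called lower in both (476, 418 and 326 counts, -0.33 and -0.62), as were Kcnb2 (219, 175 and 158 counts, -0.46 and -0.54) and Kcnh6 (300, 251 and 244 counts, -0.40 and -0.37). The opposite-strand locus of Kcnk12 was called lower in DR alone (141, 104 and 110 counts, -0.58 and -0.43). The hypothalamic neuron markers summed to 1264, 1064 and 974 CPM.

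To read regional genes in the hypothalamus without reuse of a library, loci with a mean of at least 50 counts in the hypothalamus were divided by their ratio in the DR-AL libraries of the 2 regions, and their DR against AL ratio in the hypothalamus was then described. The 22 loci that were at least 2-fold higher in the DR-AL hippocampus showed a median of 0.06 for the log2 ratio of DR to AL, with 3 called higher and 1 lower. The 14 loci at least 2-fold higher in the DR-AL hypothalamus had a median of -0.11, with none called higher and 3 lower. The 40 loci between had a median of 0.10, with 6 called higher and none lower. These medians and counts are a description and were not tested. Undivided, 4.33% of all genes were called higher and 2.72% lower in this comparison. All genes were not divided by region in this way, so the counts are not a result about regional channel genes.

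**Figure D5:**
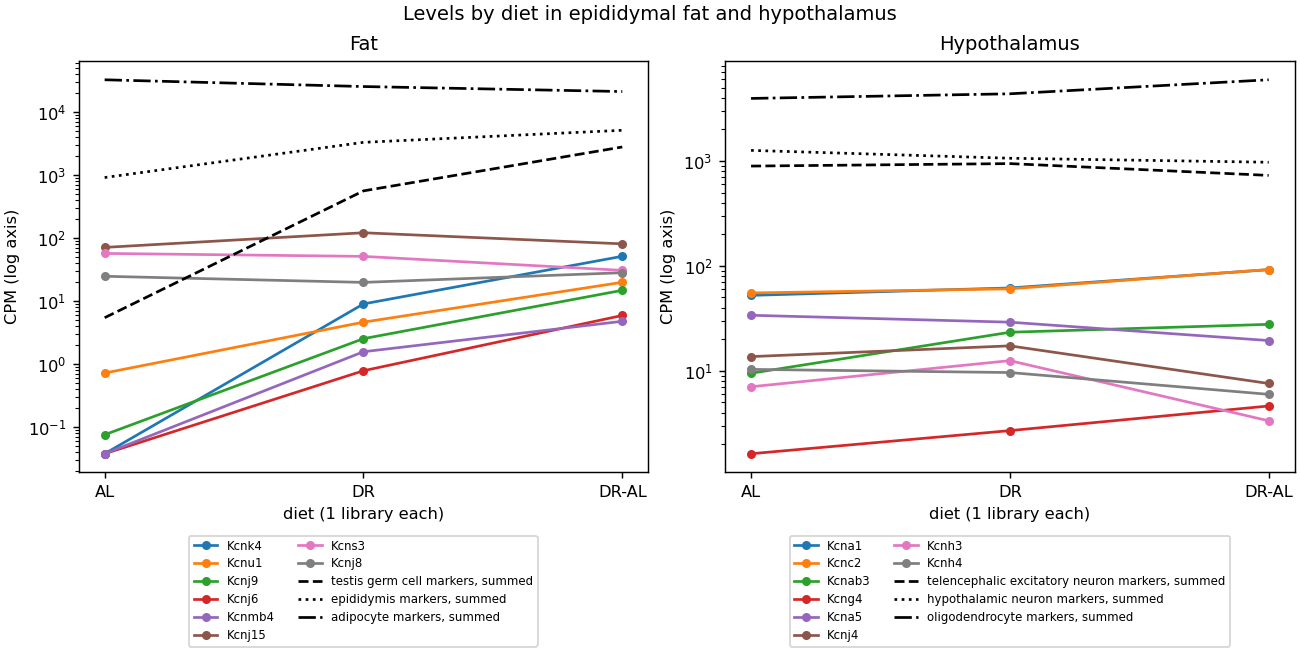
CPM on a log axis of 8 loci in the AL, DR and DR-AL libraries of fat (left) and hypothalamus (right), 1 library a point, with the summed CPM of marker lists as black lines. In fat Kcnk4, Kcnu1, Kcnj9, Kcnj6 and Kcnmb4 and the testis germ cell markers are all in the order AL, DR, DR-AL, while Kcnj15, Kcns3 and Kcnj8 stay within 19.8 to 121 CPM. In the hypothalamus Kcna1, Kcnc2, Kcnab3 and Kcng4 are highest in DR-AL, and Kcna5, Kcnj4, Kcnh3 and Kcnh4 are lowest there.

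In the hippocampus few loci were called. Of 97 loci, 1 was called higher and 3 lower in DR, where 1.36% of all genes were called higher and 2.67% lower, and 5 were higher and 3 lower in DR-AL, where the shares were 3.99% and 2.16%. Kcng1 was called higher in both, with 1652, 1757 and 1479 counts, or 40.8, 56.3 and 58.8 CPM (log2 fold change 0.46, interval 0.37 to 0.56, and 0.53, interval 0.43 to 0.63). Kcng4 was called lower in both, with 362, 153 and 174 counts, or 8.94, 4.90 and 6.92 CPM (-0.87, interval -1.15 to -0.59, and -0.37, interval -0.64 to -0.11), whereas its counts in the hypothalamus were called higher in both. Kcng3 was called higher in DR-AL (3.28, 4.32 and 5.09 CPM, 0.40, not called, and 0.63), as were Kcnt1 (33.2, 32.0 and 42.5 CPM, -0.05, not called, and 0.36) and Kcnj16 (22.7, 27.2 and 28.6 CPM, 0.26, not called, and 0.33). Kcnab3 (40.5, 39.0 and 28.1 CPM, -0.05, not called, and -0.53) and Kcnip4 (89.4, 81.7 and 69.7 CPM, -0.13, not called, and -0.36) were called lower in DR-AL, and Kcnj12 (10.8, 8.36 and 8.98 CPM, -0.37 and -0.26, the second not called) lower in DR. Kcne2 was called lower in DR (12.2, 8.01 and 15.3 CPM, -0.60) and higher in DR-AL (0.33), where the choroid plexus markers summed to 2875, 1764 and 2809 CPM and their part was not tested. If the spread between pools had a coefficient of variation of 0.1, no hippocampal locus would be called. Of all 18804 genes, 8 would be called in DR and 55 in DR-AL.

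Across the 5 tissues no potassium channel locus was called for diet by the edgeR quasi-likelihood test with tissue and diet terms, in which 0.0114% of all genes were called for DR and 0.00572% for DR-AL. An unadjusted p under 0.05 was found for 3 of the 91 loci in each comparison, and DESeq2 also called none. The share of all genes under that unadjusted threshold was not counted, so this number is not a result about the loci. The smallest p in DR were those of the opposite-strand locus of Kcne2 (log2 fold change -1.19 ± 0.43 SE), Kcng1 (1.2 ± 0.45) and Kcnn4 (0.61 ± 0.24), and in DR-AL those of Kcnn4 (0.71 ± 0.24) and Kcnc4 (1.19 ± 0.46). The lowest edgeR adjusted p was 1.00 in DR and 0.85 in DR-AL. The methods describe the harvest of all 5 tissues from the mice of a diet group, so the 5 libraries of a diet may share their mice, and this test counts them as separate samples of the diet. The common biological coefficient of variation in this model was 0.301.

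Whether the diets acted differently in brain and periphery was tested as an interaction in a separate edgeR fit. Its terms were tissue, diet and diet by brain or periphery, and 18569 genes were tested. No locus of 94 was called in DR, where 0% of all genes were called, or in DR-AL, where 0.108% were called. An unadjusted p under 0.05 was found for 11 and 12 loci. How many of all genes passed that unadjusted threshold was not counted, so these numbers are not a result about the loci. The smallest p in DR were those of Kcng1 (brain minus periphery -2.26 ± 0.48 SE on the log2 scale), Kcnip1 (-1.71 ± 0.38) and Kcnh2 (-1.09 ± 0.30), and in DR-AL those of Kcnc4 (-2.39 ± 0.62), Kcnj9 (-5.07 ± 1.52) and Kcnip4 (-1.99 ± 0.64). The lowest edgeR adjusted p were 0.47 and 0.28. Kcnc4 measured 4.04, 12.9 and 40.8 CPM in AL, DR and DR-AL fat and 70.4, 86.8 and 107 CPM in the hypothalamus. In the fat libraries testis germ cell markers summed to 5.45, 558 and 2770 CPM and epididymis markers to 909, 3282 and 5094 CPM, and their part was not tested. Without the fat libraries no locus was called either, and the value of Kcnj9 in DR-AL was 4.66, the other sign.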

How the data were processed

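Whole-tissue RNA pooled from 5 mice was sequenced after ribosomal RNA removal with strand kept. According to the methods, the authors discarded low-quality reads, aligned the rest with Strand software to mm10 and removed duplicates. The labels name mm9 and DESeq2, and only 20 of the 101 loci overlapped their GRCm38 position, so no coordinate of the table is printed. The deposited counts are raw whole numbers per locus. The ratio of the deposited FPKM to CPM of the same gene differs between libraries, and how FPKM were scaled is not given in the sources used here. FPKM therefore order genes within a tissue and serve as an alternative for diets, and CPM was computed from counts of named loci. Removal of duplicates compresses the highest counts, and intervals cover counting error only.

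Tissue, diet and interaction tests used edgeR 4.0.16 (TMM, filterByExpr, quasi-likelihood, R 4.3.3), with DESeq2 1.42.0 as alternative. Diets within a tissue used the Z test of the study (Python 3.11.15, scipy 1.17.1). All p-values were adjusted over all genes by Benjamini-Hochberg. Both tests were checked on simulated counts. The simulated spread between libraries was below that of these data, and for the Z test it was counting error alone. These checks therefore do not measure how often a locus is called falsely in these data. All 30 columns were used. Named loci are the highest by FPKM in each family and tissue (5), the largest called fold changes (8 in each direction between brain regions, 8 higher and 10 lower in brain, 6 in each direction between colon and liver, up to 5 in each direction and diet comparison with a mean of at least 50 counts), the 3 smallest p where none was called, and 12 well-known loci. Members and lists were chosen with earlier results of these data known. Some loci that the rule names are not reported here.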

Additional observations from a re-analysis of the deposited data

Results flagged for a closer look

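Kcnh3 was called in opposite directions in different tissues under the same diet comparison, also when a coefficient of variation of 0.1 between pools was assumed. Its log2 fold change in DR against AL was 2.75 in fat and 0.83 in the hypothalamus, and -1.58 in the colon. In DR-AL against AL it was 4.02 in fat and -1.08 in the hypothalamus. In AL, DR and DR-AL fat, testis germ cell markers summed to 5.45, 558 and 2770 CPM and epididymis markers to 909, 3282 and 5094 CPM, and their part was not tested. The difference between tissues rests on 1 library each and was not tested. Among loci with a mean of at least 50 counts, no other was called in opposite directions with that coefficient of variation. No group had 4 or more samples, so no sample could be compared with the rest of its group.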

How the results depend on the processing

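No paired analysis was possible because each tissue and diet had 1 library, so diets share no replicate number. Between tissues the diet term groups the libraries of a diet, whose tissues the methods describe as harvested together, and without that term 48, 88 and 39 loci were called between brain regions, brain and periphery, and colon and liver. No called value of a named locus changed direction under any alternative. The 3 tissue counts stayed within 1.5 times the reported ones under other size factors, no filter, DESeq2, no diet term and without the fat libraries. With 1 library left out at a time, the loci called ranged from 26 to 60 for hippocampus against hypothalamus, 88 to 88 for brain against periphery, 36 to 42 for colon against liver and 0 to 0 for both diet effects across tissues. The shares of all genes called in these alternative tissue fits are not given here, so changes in number are not a result about the loci. Of 735 named values with 1 library left out 38 lost their call, all in the comparison of the brain regions. Only the 43 named tissue values had a call to lose in each such fit. The others among the 735 were diet effects across tissues, which were not called. Counts within tissues depend on the error assumed. With a coefficient of variation of 0.1, the loci called were 5 (DR) and 3 (DR-AL) in the liver, 3 and 0 in the colon, 2 and 8 in the hypothalamus and 0 and 0 in the hippocampus, and fat stayed within 1.5 times. Of all genes, 1540 and 1845 of 17408 were then called in the liver and 777 and 339 of 18242 in the colon. In the hypothalamus it was 233 and 667 of 19320. With a fold of at least 2 the loci called were 8 in DR-AL liver, 8 and 2 in the colon, 2 and 4 in the hypothalamus and 0 and 0 in the hippocampus. Of all genes it was 1452 in DR-AL liver, 1045 and 732 in the colon, 466 and 887 in the hypothalamus and 245 and 302 in the hippocampus. With a mean of at least 10 counts the loci called were 5 and 8 in the liver, where 4483 and 5012 of 12823 genes were called. Of the 68 named diet values, 36 lost their call with that coefficient of variation, 48 with the fold of 2 and 5 with FPKM in place of counts. In DR-AL fat, 84.8% of calls were for higher by library totals, 72.3% by DESeq size factors and 45.8% by FPKM. The shares among the calls of all genes were 79.51%, 57.55% and 29.24%, and fell in the same order. Depth limits loci under about 1 CPM, and most liver loci fall there.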
